A study of Mus musculus with 12 samples.

Results

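Glycolysis and hypoxia-inducible metabolic genes were followed by genotype and by stimulation in cultured mouse splenic B cells. The set holds 34 genes, picked by symbol among the 55536 features of the count table, and each of the 34 had at least 1 count. It comprises 2 glucose transporters, 9 enzymes from glucose to the triose phosphates, 5 enzymes from there to pyruvate, and 4 genes of lactate handling. The others are 3 enzymes that switch glycolytic flux, 3 genes of oxygen sensing and 8 further hypoxia-inducible genes.

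Glycolysis splits glucose into pyruvate, and in activated B cells much of the pyruvate is reduced to lactate and exported. The transcription factor HIF-1 raises many genes of this pathway when oxygen is low or when its α subunit is stabilized, and it binds DNA at short elements with the core ACGTG or GCGTG. Prolyl hydroxylases mark HIF-1α for degradation when oxygen is present, and some of them are themselves HIF-1 targets.

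RNA was sequenced from 3 control mice, which carried a Cre allele but no floxed *Pdap1*, and 3 Pdap1-deficient mice, which carried the same Cre allele with *Pdap1* floxed on both chromosomes, all C57BL/6. From every mouse, splenic B cells were kept for 48 h either in LPS plus IL-4 (LPS-IL-4, for switching to IgG1) or in LPS plus BAFF and TGFβ (LPS-BAFF-TGFβ, for switching to IgG2b). This gave 12 libraries in 4 groups of 3. Cre was active in B cells, so that *Pdap1* was deleted in these cells only where it was floxed. The labels also name the CH12 line, whereas the study describes primary cells. By *Xist* and Y-linked counts, control mice 1 and 3 and Pdap1-deficient mouse 1 were female and the other 3 mice male, in both cultures.

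Total counts were between 4579793 and 15869143 per library, except 69500640 in the LPS-BAFF-TGFβ library of control mouse 1. *Pdap1* stood between 80.1 and 198 CPM (counts scaled to library size, with TMM factors over the 12 libraries) in control cultures and between 22.9 and 29.9 in Pdap1-deficient cultures. All 9 B cell markers were detected in every library and summed to between 2830 and 3745 CPM. A list of 10 myeloid markers summed to between 5.21 and 24.8 CPM in the control cultures. In Pdap1-deficient cultures the sums were 6.76 and 11.8 CPM for mouse 1, 316 and 548 for mouse 2, and 33.8 and 78.8 for mouse 3, with LPS-IL-4 and LPS-BAFF-TGFβ respectively. In mouse 2 the lysozyme gene *Lyz2* was at 93.6 and 277 CPM, the macrophage marker *Adgre1* at 83.0 and 80.3, and the neutrophil genes *S100a8* and *S100a9* at 37.6 and 56.4 and at 46.9 and 57.6 CPM. *Csf1r*, *Itgam* and *Cd14* were also highest in this mouse, and *Mpo*, *Ly6g* and *Fcgr1* were at or below 0.485 CPM in every library. In bulk RNA, fewer cells of a type and less RNA per cell cannot be told apart.

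The promoters of 4 members with results given below, not of all that changed, are shown, since HIF-1 cores lie in many glycolytic promoters. They are the 250 bases before the RefSeq start site on GRCm38.p6, read 5′ to 3′ on the gene's strand, with ACGTG or GCGTG on either strand in capitals. The windows are chrX:106186850-106187099 (plus strand) for *Pgk1*, chr7:46845554-46845803 (plus strand) for *Ldha*, chr19:41911621-41911870 (plus strand) for *Pgam1* and chr13:6648772-6649021 (minus strand) for *Pfkp*. The *Ldha* window lies inside the annotated gene, before the start of one of its shorter transcripts.
Pgk1: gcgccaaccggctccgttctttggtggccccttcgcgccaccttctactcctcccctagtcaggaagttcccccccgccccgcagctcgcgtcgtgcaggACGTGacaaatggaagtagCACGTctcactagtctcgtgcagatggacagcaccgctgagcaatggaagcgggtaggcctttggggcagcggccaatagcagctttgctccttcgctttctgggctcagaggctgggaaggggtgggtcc
Ldha: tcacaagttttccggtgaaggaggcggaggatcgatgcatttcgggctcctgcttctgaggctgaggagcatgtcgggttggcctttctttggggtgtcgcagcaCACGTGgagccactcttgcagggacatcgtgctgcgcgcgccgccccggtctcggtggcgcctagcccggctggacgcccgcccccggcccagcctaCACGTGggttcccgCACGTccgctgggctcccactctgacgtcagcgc
Pgam1: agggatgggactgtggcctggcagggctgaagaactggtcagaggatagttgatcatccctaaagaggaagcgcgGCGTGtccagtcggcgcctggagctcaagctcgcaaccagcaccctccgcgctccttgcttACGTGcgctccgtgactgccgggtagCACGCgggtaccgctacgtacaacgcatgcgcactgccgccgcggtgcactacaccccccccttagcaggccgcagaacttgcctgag
Pfkp: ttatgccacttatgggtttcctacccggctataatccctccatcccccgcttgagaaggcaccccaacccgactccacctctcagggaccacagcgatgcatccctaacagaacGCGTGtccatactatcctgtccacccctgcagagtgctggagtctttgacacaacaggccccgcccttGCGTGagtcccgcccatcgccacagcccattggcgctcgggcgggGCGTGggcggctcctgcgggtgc

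The core ACGTG or GCGTG, searched on both strands, was present in the windows of 25 of the 31 members that had one (80.6%), and in 44.9% of the windows of 16522 protein-coding genes. The E-box CACGTG, which holds an ACGTG on each strand and is therefore also counted as a core, was present in 5 of the 31 (16.1%) and in 6.8% of all windows. *Ldha* carried 2 E-boxes. The windows of *Pfkl* and *Tpi1*, which passed the test between genotypes given below but are not shown, held 1 and 0 cores. Like that of *Ldha*, the windows of *Pfkl*, *Aldoa*, *Gapdh*, *Slc16a3*, *Hif1a*, *Ankrd37* and *Higd1a* lie wholly inside the annotated gene. The element TGATGNAA was in 0 of the 31 member windows and in 3.1% of all windows. These are matches of letters, and binding was not measured. The members were chosen as glycolytic and hypoxia-inducible genes, and the base composition of the windows was not matched to that of all genes.

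Levels were compared between members per kilobase of annotated exon. *Ldha*, the muscle-type subunit of lactate dehydrogenase, was the most abundant member in every group, with means per kb of 308 CPM (control) and 207 CPM (Pdap1-deficient) in LPS-IL-4, and of 250 and 202 CPM in LPS-BAFF-TGFβ. *Pkm*, the pyruvate kinase of proliferating tissues, and *Aldoa*, the main aldolase, followed with 190 and 188 CPM per kb in control LPS-IL-4 cultures. *Tpi1*, triose phosphate isomerase, was next at 113 CPM per kb. At the other end, the heart-type subunit *Ldhb* was at most 0.322 CPM in any library and the cell surface carbonic anhydrase *Car9* at most 0.966 CPM, and neither passed the filter on low counts in any comparison. The stretches of 50 bases that a member shares with other genes limit how surely its reads were assigned. They made up 82.5% of the *Gapdh* transcript, 72.2% of *Eno1*, 68.0% of *Pgk1*, 62.4% of *Bnip3* and 41.5% of *Pgam1*, but 16.6% of *Ldha* and none of *Slc16a1*.

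The first comparison asked how loss of Pdap1 altered these genes with LPS-IL-4. In Pdap1-deficient cells the glycolytic transcripts *Ldha*, *Pgam1*, *Pfkl* and *Tpi1* were lower and the platelet-type phosphofructokinase *Pfkp* was higher, and no other member passed. The quasi-likelihood test of edgeR, at a threshold of 0.05 on the adjusted p, passed 1 member as higher and 4 as lower among the 31 tested. Of all 15074 genes tested, 4.92% passed, 2.79% as higher and 2.12% as lower. The fitted change was negative for 21 of the 31, and their median log2 fold change was -0.13, against 0.02 over all genes tested. In 13 members every Pdap1-deficient library lay below every control library and in 5 every one lay above. Such non-overlap occurred in 31.7% of all genes tested, 16.2% as lower and 15.5% as higher.

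The glucose transporters did not pass. *Slc2a1*, which encodes the widely expressed transporter GLUT1, had a log2 fold change of -0.03 and *Slc2a3* (GLUT3) one of -0.34, with adjusted p-values of 0.896 and 0.108 in edgeR's quasi-likelihood test.

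Phosphofructokinase, which commits sugar to glycolysis, has a liver, a muscle and a platelet isoform, and these moved apart. *Pfkp* (ENSMUSG00000021196, chromosome 13 from 6579768 to 6648777, minus strand, GRCm38) was at 177, 165 and 180 CPM in control mice 1 to 3 and at 294, 263 and 315 CPM in Pdap1-deficient mice 1 to 3. The Pdap1-deficient libraries were all above the controls, and the log2 fold change was 0.73 (SE 0.11, adjusted p = 0.00626, edgeR's quasi-likelihood test). *Pfkl* (ENSMUSG00000020277, chromosome 10 from 77986947 to 78010083, minus strand) was at 116, 121 and 131 CPM in the controls and at 91.9, 68.6 and 88.0 CPM in the Pdap1-deficient mice. Here all 3 Pdap1-deficient libraries were below the controls, with a log2 fold change of -0.58 (SE 0.13, adjusted p = 0.0345, edgeR). The muscle isoform *Pfkm* was between 2.49 and 3.39 CPM per kb of exon in the 12 libraries, and its log2 fold change of -0.02 (SE 0.18) did not pass.

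Which of the 2 main isoforms was the more abundant in control LPS-IL-4 cultures depended on the length used. Per kb of all annotated exons (13401 bases for *Pfkp*, 6675 for *Pfkl*) *Pfkp* was at 12.3 to 13.4 CPM and *Pfkl* at 17.5 to 19.6 CPM, but the single transcripts used for shared stretches are of more similar length (4145 and 3730 bases), and in CPM without length *Pfkp* was the higher. No order between the isoforms is therefore given. *Pfkp* shares 17.1% of its 50-base stretches with the neighbouring gene *Pitrm1*, which had 280 to 291 CPM in the controls and 170 to 273 CPM in Pdap1-deficient mice with LPS-IL-4, the opposite direction.

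Of the other upper enzymes, *Tpi1* (ENSMUSG00000023456, chromosome 6 from 124810586 to 124814296, minus strand) was at 302, 312 and 320 CPM in the controls and at 242, 194 and 233 CPM in the Pdap1-deficient mice. Its groups did not overlap, and the log2 fold change was -0.49 (SE 0.11, adjusted p = 0.0401, edgeR). *Hk2*, the inducible hexokinase, was lower without passing (-0.37, adjusted p = 0.0848, edgeR), and *Hk1*, the constitutive one, had a log2 fold change of -0.01. *Gpi1*, *Aldoa* and the brain-type aldolase *Aldoc* had log2 fold changes of -0.17, -0.13 and -0.14, and none passed.

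Downstream of the triose phosphates all 5 enzymes were below the controls without overlap, and 1 passed. *Pgam1*, phosphoglycerate mutase (ENSMUSG00000011752, chromosome 19 from 41911923 to 41918660, plus strand), was at 75.5, 73.0 and 69.6 CPM in the controls and at 53.5, 37.2 and 51.9 CPM in the Pdap1-deficient mice. Its log2 fold change was -0.62 (SE 0.15, adjusted p = 0.0394, edgeR). *Eno1*, *Gapdh*, *Pgk1* and *Pkm* had log2 fold changes of -0.49, -0.44, -0.43 and -0.28, with adjusted p-values of 0.0547, 0.0721, 0.0749 and 0.170 in edgeR's test.

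The summed level of the 4 genes of lactate handling was between 1280 and 1336 CPM in control LPS-IL-4 cultures and between 709 and 1054 CPM in Pdap1-deficient ones. *Ldha* (ENSMUSG00000063229, chromosome 7 from 46841475 to 46855627, plus strand) was at 993, 1016 and 1053 CPM in the controls and at 803, 570 and 684 CPM in the Pdap1-deficient mice. All 3 Pdap1-deficient libraries were lower, with a log2 fold change of -0.58 (SE 0.14, adjusted p = 0.0430, edgeR). The lactate exporter *Slc16a1* (MCT1) was at 284, 289 and 280 CPM in the controls and at 248, 132 and 225 CPM in the Pdap1-deficient mice. The groups did not overlap, but mouse 2 stood far below the rest and the adjusted p was 0.207 (log2 fold change -0.50, SE 0.22, edgeR).

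Among the switches, *Pdk1* encodes a kinase that inhibits pyruvate dehydrogenase. It was at 61.7 ± 2.15 CPM in the controls and 45.7 ± 5.97 CPM in the Pdap1-deficient mice (SD, n = 3 each). The log2 fold change was -0.44 (adjusted p = 0.0632 across all genes, edgeR). The phosphofructokinase activators *Pfkfb3* and *Pfkfb4* had log2 fold changes of 0.03 and 0.47, and neither passed. None of the 3 oxygen sensing genes passed in edgeR's test or in DESeq2's. At an unadjusted p under 0.05 in edgeR there were 2 of the 3, and 3582 of all 15074 genes tested. *Hif1a*, the regulated subunit of HIF-1, was at 153 to 171 CPM in the controls and 191 to 215 CPM in Pdap1-deficient mice (0.32, SE 0.10, adjusted p = 0.0819, edgeR). The prolyl hydroxylase *Egln3* was at 0.262 to 0.740 CPM and 1.09 to 1.69 CPM (1.58, SE 0.48, adjusted p = 0.0831, edgeR), and its relative *Egln1* did not move beyond its spread (-0.10, SE 0.11).

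None of the 6 other hypoxia-inducible members tested passed with LPS-IL-4, and their log2 fold changes ran from -0.27 for the mitochondrial protein *Higd1a* to 0.31 for the mitophagy receptor *Bnip3*. *Bnip3l*, another mitophagy receptor, was higher in each Pdap1-deficient library (0.29, adjusted p = 0.162, edgeR).

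**Figure D1:**
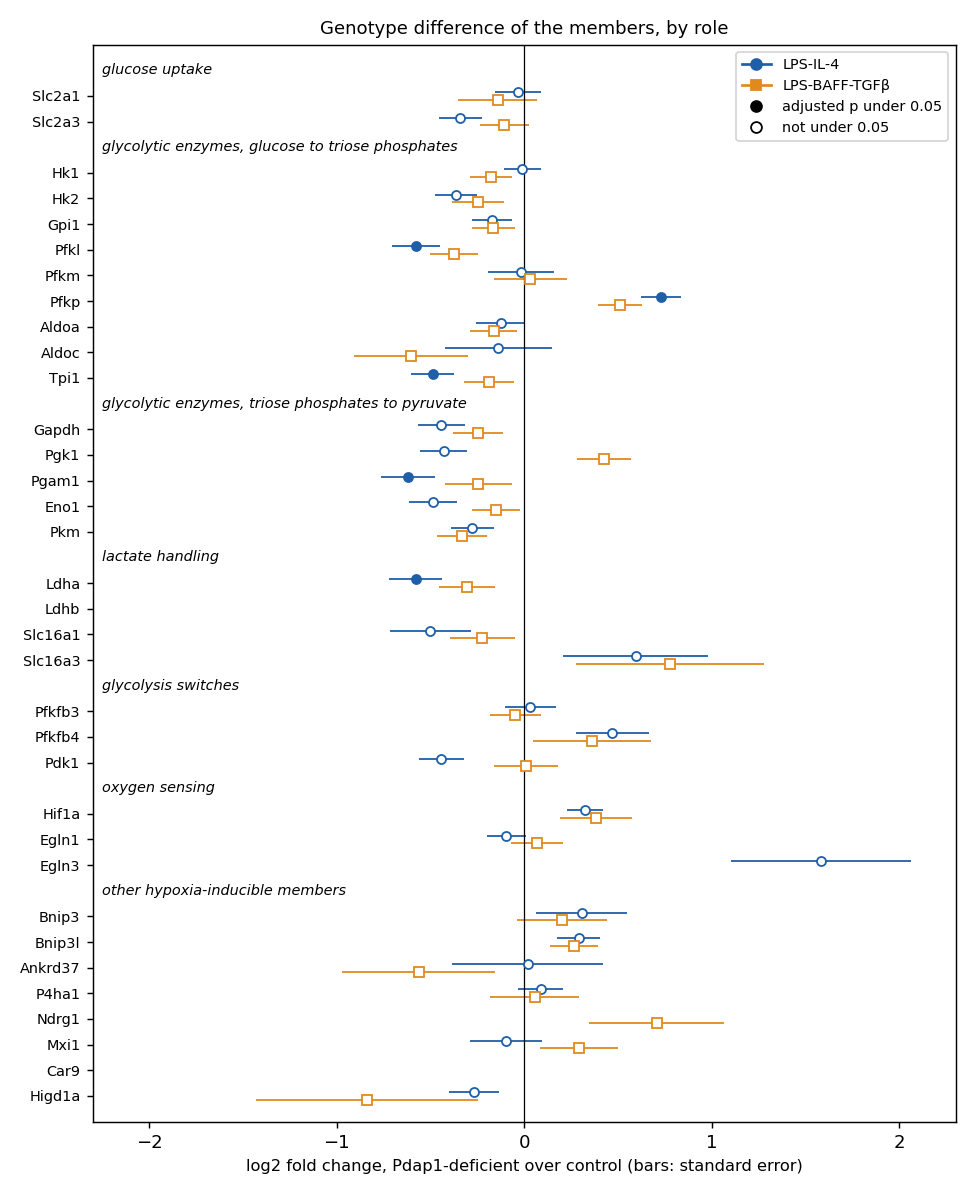
Log2 fold change of Pdap1-deficient over control for each member, by role. Circles are LPS-IL-4, squares LPS-BAFF-TGFβ, bars the standard error, and filled symbols passed at an adjusted p under 0.05 (edgeR, 3 mice per group). Only *Pfkp*, *Pfkl*, *Tpi1*, *Pgam1* and *Ldha* with LPS-IL-4 are filled, and *Ldhb* and *Car9* were not tested.

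These calls depended on the mice. With any one of the control mice left out, 0 members passed in edgeR's test, and without Pdap1-deficient mouse 3 only *Pfkp* did, whereas 10 passed without mouse 1 and 11 without mouse 2. The calls over all genes moved in the same way, from 741 to between 69 and 91 without a control mouse, 163 without mouse 3, 1759 without mouse 1 and 1459 without mouse 2. With sex as a term in the fit, *Pfkp* alone passed among 173 genes in all, and DESeq2's Wald test passed 10 members among 1217 genes, the 5 above with *Eno1*, *Gapdh*, *Hk2*, *Pdk1* and *Pgk1*.

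**Figure D2:**
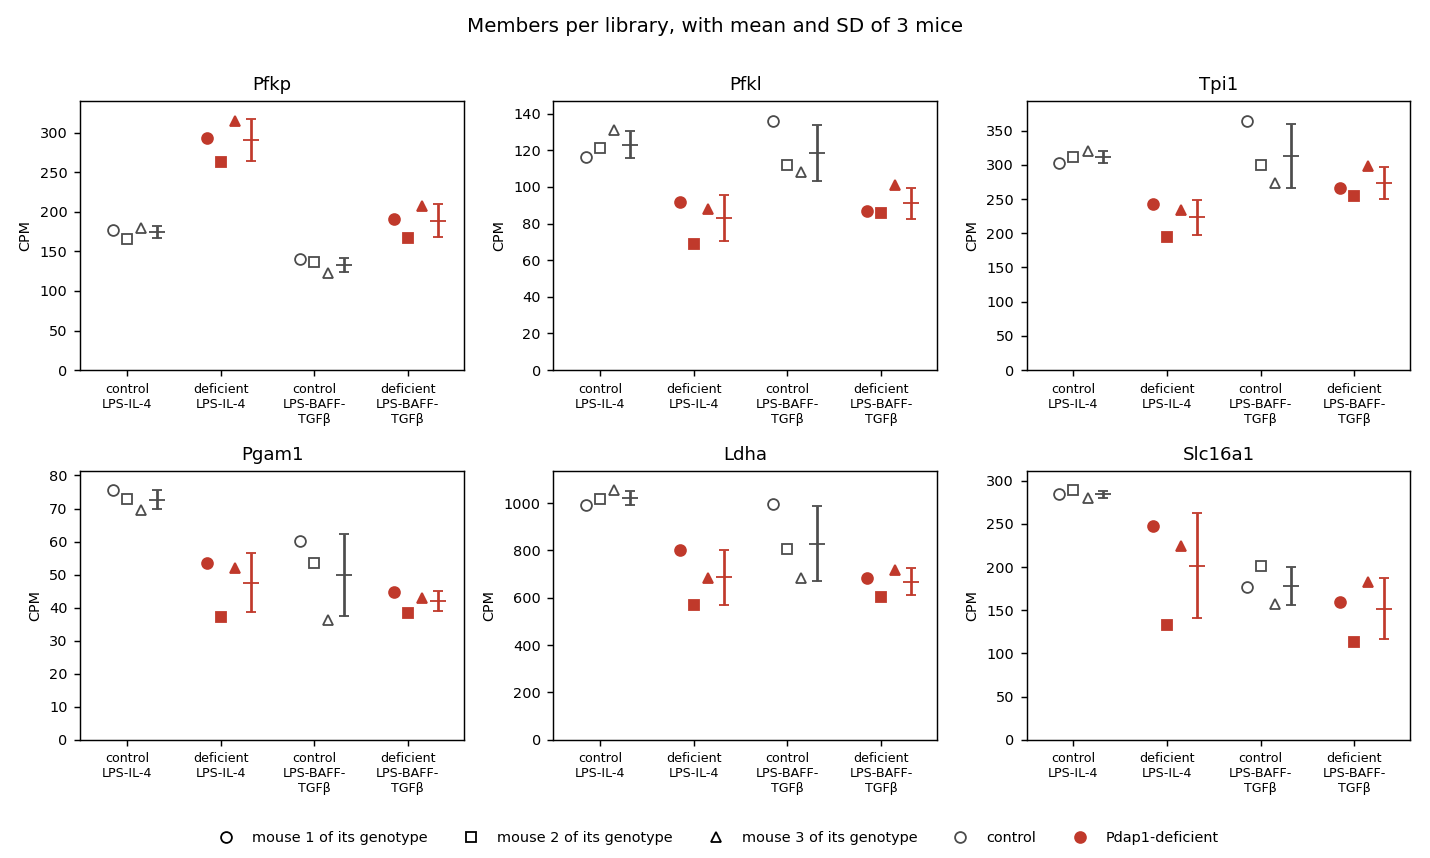
CPM of 6 members in each of the 12 libraries, from 0 on each axis. Symbols mark the mouse, open grey control and filled red Pdap1-deficient, with the mean and SD of 3 mice beside them. With LPS-IL-4 the groups do not overlap in any of the 6 panels, and *Pfkp* is the one that is higher in Pdap1-deficient mice.

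Pdap1-deficient mouse 2 carried the highest myeloid marker sum and was the lowest of the 3 Pdap1-deficient mice for 20 of the 34 members with LPS-IL-4, and for 16 with LPS-BAFF-TGFβ. The same count over all genes was not made, so a shift in these members cannot be told from a general one. Mouse 2 was the highest for *Slc16a3* (MCT4, a lactate exporter of highly glycolytic cells), at 6.42 and 7.0 CPM, where the other 10 libraries were between 1.61 and 2.63. It was also the highest for *Pfkfb4*, at 11.7 and 11.5 CPM, where the others were between 4.74 and 8.23. The erythroid marker sum was 21.3 and 24.5 CPM in Pdap1-deficient mice 2 and 3 with LPS-IL-4 and 8.62 to 11.5 in the other LPS-IL-4 libraries. Plasmablast markers summed to 621 to 673 CPM in control and 745 to 890 CPM in Pdap1-deficient LPS-IL-4 libraries. Of the 5 plasmablast markers tested there, 2 were higher without overlap and 1, *Sdc1*, was lower. In edgeR's test 1 of the 5 passed as higher and 0 as lower. *Prdm1*, 1 of the 2 higher, was at 14.1 to 19.9 CPM in control and 50.5 to 71.0 CPM in Pdap1-deficient LPS-IL-4 libraries. *Sdc1* was at 6.41 to 9.88 CPM in control and 3.94 to 5.82 CPM in Pdap1-deficient LPS-IL-4 libraries. Endothelial and stromal markers summed to 59.7 to 67.5 and 72.4 to 119 CPM, mostly from *Pecam1* (58.5 to 66.6 and 71.5 to 114 CPM). B cell markers summed to 3318 to 3374 and 3394 to 3745 CPM. Mitochondrial genes took 1.99% to 2.34% of counts in control and 2.50% to 3.26% in Pdap1-deficient LPS-IL-4 libraries, without overlap, and the single gene *Lars2* took 9.90% of counts in the LPS-BAFF-TGFβ library of Pdap1-deficient mouse 1. The part of these markers and shares in the values of the members was not tested. Without mouse 2 all 5 members that passed with LPS-IL-4 still passed, and without mouse 3, which also had raised myeloid, erythroid and plasmablast sums, only *Pfkp* did.

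**Figure D3:**
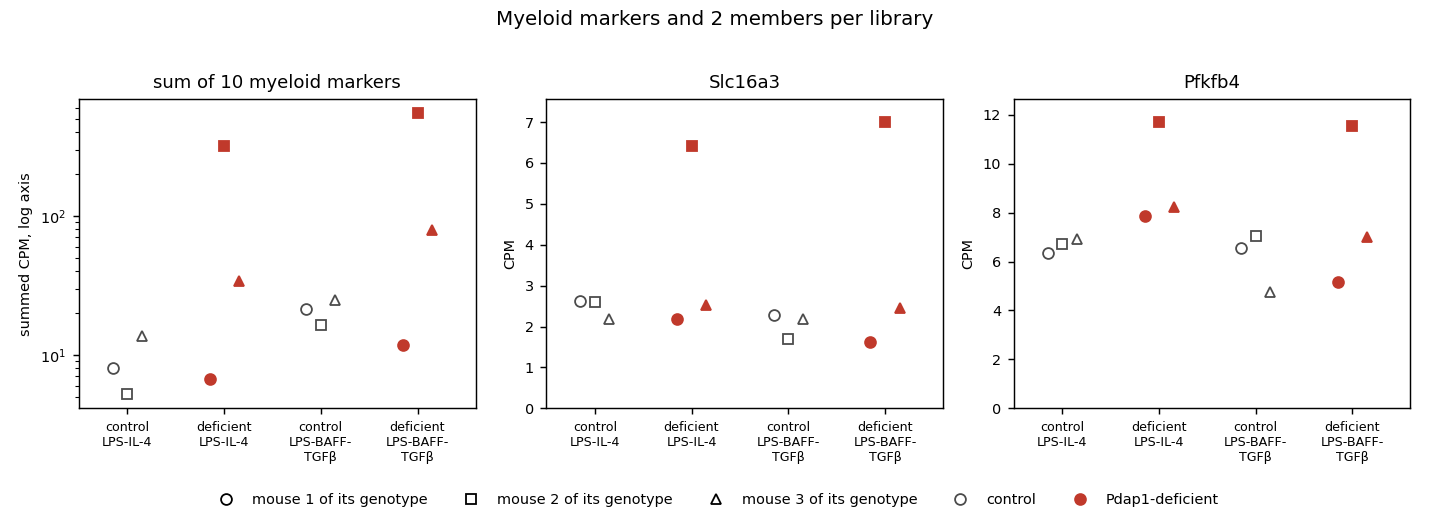
Summed CPM of 10 myeloid markers (log axis) and CPM of *Slc16a3* and *Pfkfb4* (axes from 0) in each library, with symbols for the mouse and colours for the genotype. Pdap1-deficient mouse 2 (filled squares) is the highest in all 3 panels in both stimulations, with 316 and 548 CPM of myeloid markers.

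With LPS-BAFF-TGFβ the fitted change between genotypes was negative for 7 of the 9 upper and 4 of the 5 lower glycolytic enzymes, and *Pfkp* was again above the controls in every library. None of the 31 members tested passed in edgeR's quasi-likelihood test or in DESeq2's Wald test, and 0.462% of all 14079 genes tested passed in edgeR. At an unadjusted p under 0.05 in edgeR there were 4 of the 31 members and 1486 of the 14079 genes. The members' median log2 fold change was -0.14, against 0.0066 over all genes tested. Groups did not overlap for 10 members, 5 higher and 5 lower, against 18.6% of all genes tested.

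*Pfkp* was at 140, 137 and 123 CPM in control mice 1 to 3 and at 192, 167 and 208 CPM in the Pdap1-deficient mice. These groups did not overlap (log2 fold change 0.51, SE 0.12, adjusted p = 0.172, edgeR). *Pfkl* was at 136, 112 and 108 CPM in the controls and at 86.6, 85.6 and 101 CPM in the Pdap1-deficient mice, again without overlap (-0.37, SE 0.13, adjusted p = 0.373, edgeR). *Ldha*, *Tpi1* and *Pgam1*, which passed with LPS-IL-4, overlapped between genotypes here, with log2 fold changes of -0.30, -0.19 and -0.24. *Pkm* was lower in each Pdap1-deficient library, with a log2 fold change of -0.33 (adjusted p = 0.442, edgeR).

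*Hif1a* was at 91.8, 144 and 153 CPM in the controls and at 151, 183 and 170 CPM in the Pdap1-deficient mice, and the groups overlapped. The deep library of control mouse 1 held the low *Hif1a* value, and it also held 51.8 CPM of *Higd1a*, against 13.7 to 21.3 in the other 11 libraries. Without it, *Pfkp* passed in LPS-BAFF-TGFβ.

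*Pgk1*, phosphoglycerate kinase (ENSMUSG00000062070, chromosome X from 106187100 to 106203699, plus strand), was examined for an effect that differs between the cultures. With LPS-IL-4 it was at 111, 110 and 103 CPM in control mice 1 to 3 and at 92.3, 69.0 and 80.9 CPM in the Pdap1-deficient mice, each of them below each control. With LPS-BAFF-TGFβ it was at 53.3, 75.8 and 67.3 CPM in the controls and at 81.8, 88.1 and 91.8 CPM in the Pdap1-deficient mice, each of them above each control. It was the only member whose groups were separated in both stimulations in opposite directions.

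The log2 fold change of *Pgk1* was -0.43 (SE 0.12, adjusted p = 0.0749, edgeR) with LPS-IL-4 and 0.43 (SE 0.15, adjusted p = 0.371, edgeR) with LPS-BAFF-TGFβ. The genotype by stimulation term, the second minus the first in one fit over the 12 libraries, was 0.84 (SE 0.19). Its unadjusted p of 0.000615, from the quasi-likelihood model of edgeR across all genes, was the 13th smallest of 15794, and the adjusted p was 0.718. No member passed this term in edgeR or DESeq2 (over all genes edgeR passed 0, with 755 at an unadjusted p under 0.05, and DESeq2 passed 6), *Pgk1* was the only one of 32 tested at an unadjusted p under 0.05, and 0.0% of all genes tested passed. The term thus did not pass the threshold for *Pgk1*, and it stayed between 0.59 and 0.96 over the alternatives.

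The division of reads between *Pgk1* and its copies was not the same in all libraries. The processed pseudogene *Pgk1-rs7* shares 1206 of the 1776 50-base stretches of the *Pgk1* transcript. In the LPS-BAFF-TGFβ library of control mouse 1, 34.8% of the counts on *Pgk1* and its 3 copies stood on the copies, against 5.31% to 12.6% in the other 11 libraries. Counted with its copies, *Pgk1* was at 84.1, 87.9 and 76.6 CPM in the LPS-BAFF-TGFβ controls and at 87.9, 88.5 and 98.4 CPM in the Pdap1-deficient mice, so that the highest control and the lowest Pdap1-deficient library were level. The log2 fold change was then 0.21 (SE 0.11, adjusted p = 0.526, edgeR), and with LPS-IL-4 it was -0.41 (SE 0.13, adjusted p = 0.0903, edgeR). The genotype by stimulation term fell to 0.60 (SE 0.16, adjusted p = 0.961, edgeR).

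Without the deep library of control mouse 1 the term for *Pgk1* alone was 0.70 (SE 0.17, adjusted p = 0.490, edgeR). *Pgk1* is X-linked and the genotypes differed in the number of females. With sex as a term in the fit, its log2 fold change between genotypes was -0.39 (adjusted p = 0.195, edgeR) with LPS-IL-4 and 0.35 (adjusted p = 0.786, edgeR) with LPS-BAFF-TGFβ. Each mouse was in both cultures, so a sex term shared by them could not alter the genotype by stimulation term (0.84 with it). A sex effect that differs between the cultures was not tested in that term.

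**Figure D4:**
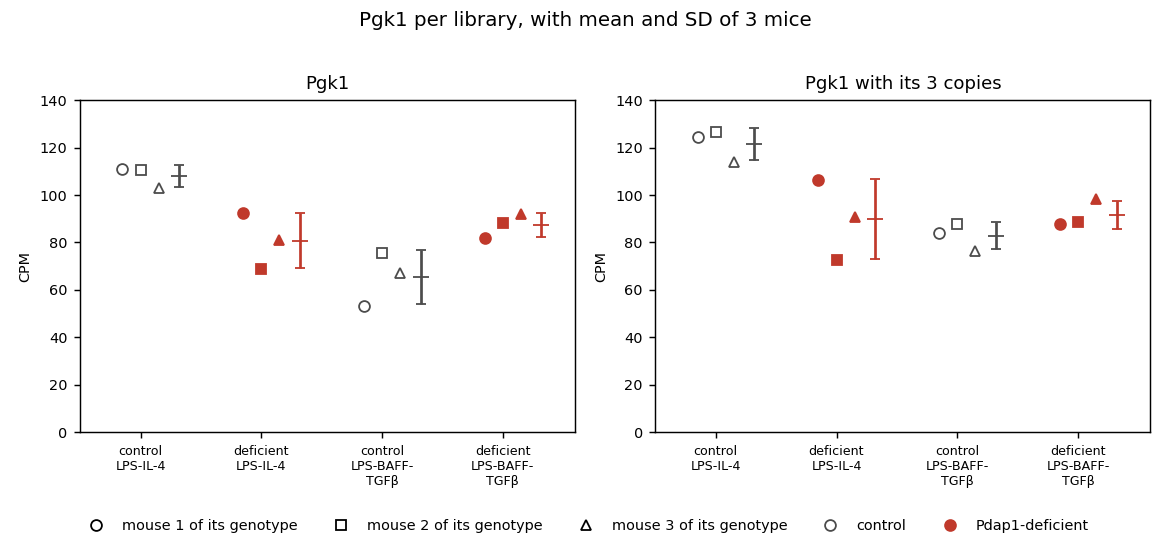
CPM of *Pgk1* alone (left) and with its 3 copies (right) in each library, on the same axis from 0, with the mean and SD of 3 mice. On the left the Pdap1-deficient mice are below the controls with LPS-IL-4 and above them with LPS-BAFF-TGFβ. On the right the second gap narrows, as control mouse 1 goes from 53.3 to 84.1 CPM.

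Stimulations were compared within each genotype, to ask which of these genes differed between the 2 culture conditions. The comparisons share libraries with those of the genotypes above and are given beside them as values only. In control mice, *Pgk1*, *Slc16a1*, *Pdk1*, *Pfkp* and *Gapdh* were higher with LPS-IL-4, and *Pfkfb3*, *Bnip3l* and *Ndrg1* were higher with LPS-BAFF-TGFβ. These were 5 and 3 of 31 members tested, while 19.3% of all 14882 genes tested passed, 9.33% as higher and 9.99% as lower with LPS-IL-4. Groups did not overlap for 13 members, against 37.8% of all genes tested. At 8 of 31, the members were near that background. The members' median log2 fold change was 0.12, against -0.03 over all genes.

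In Pdap1-deficient mice, *Pfkp* and *Slc2a1* were higher with LPS-IL-4 and *Pfkfb3* and *Bnip3l* higher with LPS-BAFF-TGFβ. These were 4 of 32 members tested, and 11.5% of all 14617 genes tested passed, 5.89% as higher and 5.57% as lower with LPS-IL-4. Groups did not overlap for 10 members, against 29.0% of all genes tested, and the median log2 fold change was 0.06, against 0.0025 over all genes.

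*Pfkfb3*, which makes the activator of phosphofructokinase, had the largest change among the switches in both genotypes. It was at 34.8, 36.3 and 33.1 CPM with LPS-IL-4 and at 70.1, 58.6 and 68.5 CPM with LPS-BAFF-TGFβ in control mice 1 to 3. In Pdap1-deficient mice it was at 31.6, 43.9 and 31.7 CPM and at 63.6, 71.6 and 55.0 CPM. The stimulations did not overlap in either genotype, with log2 fold changes of -0.92 (SE 0.10, adjusted p = 0.000506, edgeR) and -0.82 (SE 0.16, adjusted p = 0.00965, edgeR).

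*Slc16a1* was at 284, 289 and 280 CPM with LPS-IL-4 and at 177, 201 and 157 CPM with LPS-BAFF-TGFβ in control mice (log2 fold change 0.67, SE 0.11, adjusted p = 0.00300 across all genes, edgeR). In Pdap1-deficient mice it was at 248, 132 and 225 CPM and at 160, 113 and 182 CPM, where the stimulations overlapped (0.41, SE 0.27, adjusted p = 0.456, edgeR). That fit ignored the pairing, and within each of these mice the LPS-IL-4 culture was the higher. With the mouse as a block, a fit given below, *Slc16a1* passed in Pdap1-deficient mice, where 3854 of 14617 genes did. Whether the genotypes differ in this response was tested by the genotype by stimulation term, which did not pass (adjusted p = 0.989, edgeR).

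*Slc2a1* was at 26.6, 25.6 and 31.9 CPM with LPS-IL-4 and at 24.4, 17.4 and 17.3 CPM with LPS-BAFF-TGFβ in control mice, and at 29.2, 26.7 and 26.7 CPM and 17.5, 21.8 and 14.4 CPM in Pdap1-deficient mice. It was higher with LPS-IL-4 without overlap in both genotypes, by 0.49 (SE 0.17, adjusted p = 0.0789, edgeR) and 0.62 (SE 0.17, adjusted p = 0.0383, edgeR) on the log2 scale. *Pfkp* was higher with LPS-IL-4 by 0.38 (SE 0.09, adjusted p = 0.0176, edgeR) in control and 0.62 (SE 0.12, adjusted p = 0.00732, edgeR) in Pdap1-deficient mice.

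*Pgk1* was higher with LPS-IL-4 in control mice, without overlap, by 0.73 (SE 0.13, adjusted p = 0.00676, edgeR). In Pdap1-deficient mice its log2 fold change was -0.12 (SE 0.12, adjusted p = 0.654, edgeR) and the stimulations overlapped. *Gapdh* was higher with LPS-IL-4 in control mice by 0.35 (adjusted p = 0.0491, edgeR), and counted with its 72 copies it was not past the test (0.20, adjusted p = 0.355, edgeR).

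Of the 7 other hypoxia-inducible members tested in control mice, 2 passed as lower with LPS-IL-4 and 0 as higher. *Ndrg1*, a stress-responsive gene, was low throughout, at 0.740, 0.718 and 0.612 CPM with LPS-IL-4 and 2.14, 2.06 and 0.972 CPM with LPS-BAFF-TGFβ in control mice (-1.38, SE 0.38, adjusted p = 0.0374, edgeR). In Pdap1-deficient mice it was at 0.388, 2.0 and 0.633 CPM and at 3.06, 3.29 and 2.46 CPM (-1.45, SE 0.54, adjusted p = 0.133, edgeR), again without overlap. *Bnip3l* was at 20.7, 20.4 and 19.0 CPM and at 26.9, 31.0 and 29.0 CPM in control mice, and at 25.6, 25.0 and 23.3 CPM and 34.0, 36.4 and 33.3 CPM in Pdap1-deficient mice. Its groups did not overlap in either genotype, and the log2 fold changes were -0.53 (adjusted p = 0.0146, edgeR) and -0.49 (adjusted p = 0.0244, edgeR).

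**Figure D5:**
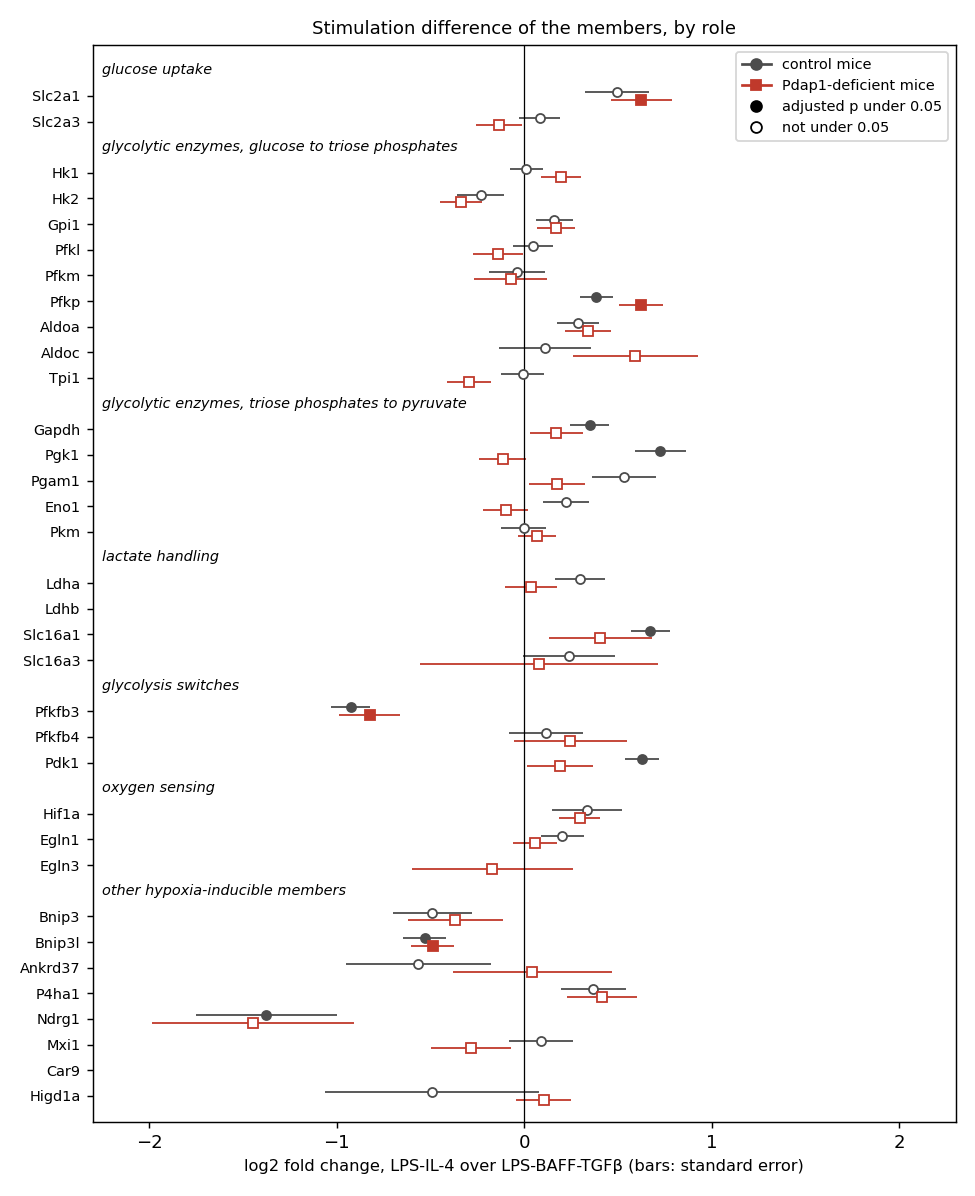
Log2 fold change of LPS-IL-4 over LPS-BAFF-TGFβ for each member, by role, in control mice (grey circles) and Pdap1-deficient mice (red squares). Bars are the standard error and filled symbols passed at an adjusted p under 0.05 (edgeR, 3 mice per group). *Pfkfb3*, *Bnip3l* and *Pfkp* are filled in both genotypes, and *Pgk1* is filled in control mice only.

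Since the 2 cultures of a mouse are paired, a second fit took the mouse as a block. In control mice *Pdk1*, *Pfkfb3*, *Pgk1* and *Slc16a1* still passed, *Pgam1* was added, and *Pfkp*, *Bnip3l*, *Gapdh* and *Ndrg1* no longer passed, with 1989 genes called in all. In Pdap1-deficient mice 11 members passed, the 4 above with *Aldoa*, *Hif1a*, *Hk2*, *Ndrg1*, *P4ha1*, *Slc16a1* and *Tpi1*, while the calls over all 14617 genes rose from 1675 to 3854. Without the deep library of control mouse 1, 12 members passed in control mice, where 4858 of 15299 genes did. Without both cultures of Pdap1-deficient mouse 2, 9 members passed in Pdap1-deficient mice, where 2398 of 14515 genes did.

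Other genes of the pathways were taken from lists of 121 symbols. With LPS-IL-4, 6 of the 91 tested were higher and 2 lower in Pdap1-deficient cells, against 2.79% and 2.12% of all genes tested. The smallest adjusted p-values were those of *Vegfa*, an angiogenic growth factor (log2 fold change 2.91, adjusted p = 0.00136, edgeR), *Ddit4*, an inhibitor of mTORC1 (1.34, adjusted p = 0.00659, edgeR), and *Stc2*, a secreted glycoprotein (5.33, adjusted p = 0.00659, edgeR). These 3 belong to the other hypoxia-inducible genes, of which 5 were higher and 2 lower among 28 tested, with the same background. *Stc2* was near the floor, at 0 to 0.0822 CPM in the controls and 0.970 to 2.02 CPM in Pdap1-deficient mice, so the size of its change is uncertain. *Gys1*, the muscle glycogen synthase, was also higher (0.74, adjusted p = 0.0284, edgeR). The medians of the other glycolysis genes, glycolysis regulators and HIF pathway components were 0.04, -0.20 and -0.08, against 0.02 over all genes. With LPS-BAFF-TGFβ, 1 of 88 passed (0.462% of all genes tested did), again *Vegfa* (5.68, adjusted p = 0.00326, edgeR), which was at 0 to 0.729 CPM in the controls and 19.8 to 28.7 CPM in Pdap1-deficient mice.

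Between stimulations, 12 of 89 pathway genes were higher and 12 lower with LPS-IL-4 in control mice, and 5 and 11 of 91 in Pdap1-deficient mice. Over all genes tested, 9.33% and 9.99% passed in these directions in control mice and 5.89% and 5.57% in Pdap1-deficient mice. *Eno2*, the neuronal enolase, was lower with LPS-IL-4 in both (-1.82 and -1.20), as was the red-cell mutase *Bpgm* (-0.88 and -0.62), while the hexose transporter *Slc2a6* was higher (0.75 and 0.49). *Pgm2*, a phosphopentomutase, was lower in both (-1.22 and -1.21), and so was *Hif3a*, a HIF family member (-2.12 and -1.88). Among other hypoxia-inducible genes, *Bhlhe40* (-2.01 and -1.56), *Cxcr4* (-2.62 and -1.90) and *Ak4* (-2.39 and -2.77) were lower with LPS-IL-4. *Mlxip*, a glucose-responsive factor that pairs with Mlx, was higher in both (0.76 and 1.09), and *Myc*, a driver of glycolytic genes, was higher in control mice (0.46). All of these values passed in edgeR's test.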

How the data were processed

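The table deposited by the authors holds raw counts for each Ensembl identifier, made with Trim Galore 0.6.1, STAR 2.6 and HTSeq 0.9.1 on GRCm38 per the submitters' processing notes. Whether counting used strand is not given in the sources used here. The deposited normalized table was not used, and 0 columns of values lacked a sample. Symbols came from GENCODE M21. *Aldoa* has a second overlapping identifier with at most 22 counts, which was left out.

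Counts were tested with the quasi-likelihood F test of edgeR 4.0.16 (R 4.3.3; filterByExpr, TMM, robust fit, Benjamini-Hochberg over all genes tested), with DESeq2 1.42.0 beside it. Replicates were separate mice, and no library was a copy of another. Mouse numbers link the 2 cultures of a mouse by the series description. In these pairs the deviations from the group means had correlations of -0.18, 0.34 and -0.02 in control and 0.58, 0.62 and 0.29 in Pdap1-deficient mice. Cultures of different mice had correlations of -0.41 to 0.37 in control and -0.58 to 0.01 in Pdap1-deficient mice. In control mice these correlations therefore do not set the pairs apart.

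Members, lists and alternatives were chosen with earlier results of these data known. Values per library were given for *Pgk1*, for members that passed between genotypes and for the largest change per role between stimulations. Of each pathway list at most 3 genes per comparison were named, those with the smallest adjusted p. Shared stretches and copies (genes at another locus with at least 10% of a member's 50-base stretches) came from the GENCODE M21 transcripts, and promoter windows from RefSeq, where 31 of 34 members matched. On simulated data with 200 changed genes, edgeR recovered between 21% and 55% of 2-fold changes over the 5 comparisons and between 2% and 22% of 1.5-fold changes. Figures were drawn with matplotlib 3.10.9.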

Additional observations from a re-analysis of the deposited data

Results flagged for a closer look

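*Pgk1* was singled out because every Pdap1-deficient library lay below every control with LPS-IL-4 and above every control with LPS-BAFF-TGFβ. How many of all genes show this pattern was not counted. The genotype effect with LPS-BAFF-TGFβ minus that with LPS-IL-4 was 0.84 on the log2 scale. The test of this difference in edgeR over all genes gave an adjusted p of 0.718, so it did not pass, and with the copies of *Pgk1* counted in, the value was 0.60. Groups of 3 are too small for a test of single libraries that stand apart, and none was made.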

How the results depend on the processing

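The *Pgk1* term and the fold changes of single members that passed kept their sign under each alternative run. The members' median for the genotype by stimulation term, 0.04 as reported, did not: it was between -0.0034 and -0.011 with no filter, without the LPS-IL-4 library of Pdap1-deficient mouse 3, without the LPS-BAFF-TGFβ libraries of control mouse 3 or Pdap1-deficient mouse 2, and without both cultures of mouse 2. The number of members past the test with LPS-IL-4, 5 as reported, was 10 with DESeq2's Wald test, 11 with no filter on low counts and 1 with a term for sex, and between 0 and 11 when single mice were omitted. With LPS-BAFF-TGFβ, 0 as reported, it was 1 with all 12 libraries in one fit and between 0 and 1 when single mice were omitted. Between stimulations it was 8 as reported in control mice, 5 with the mouse as a block and between 4 and 12 with each library left out. In Pdap1-deficient mice it was 4 as reported, 11 with the block and between 1 and 6 with each library left out (1 or 2 without either library of mouse 1 or mouse 3). For the genotype by stimulation term it was 0 throughout, the block included. For the single members that passed, 186 values under the alternatives still passed and 71 did not. The causes were not tested, and the fits that leave a library out also hold fewer libraries.

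Between genotypes the replicate numbers name different mice and pair nothing (correlations of -0.20 to 0.10), and a block on them left 4 and 0 members past the test. The term for *Pgk1* was 0.86 with the mouse as a block (adjusted p = 0.377, edgeR). The alternatives chosen after seeing the data gave 1 member with LPS-BAFF-TGFβ without the deep control library and Pdap1-deficient mouse 2, 9 in Pdap1-deficient mice between stimulations without mouse 2, and no change in any count with copies counted in. With all libraries thinned to the smallest, 6 and 0 members passed between genotypes, 6 and 3 between stimulations and 0 for the genotype by stimulation term. On simulated data edgeR recovered 21% of 2-fold changes for that term.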
